A study of Bos taurus with 3 samples.

Results

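Antigen presentation genes were followed through the epithelial cells of the rumen. They were 8 of the 19533 genes with a row name in the deposited tables, and all 8 were found by exact name. The genes were chosen by name with earlier results of these data known, no threshold was set on their values, and the states in which they are compared were selected on UMIs of 4 other genes. They are *B2M* (ENSBTAG00000012330), *BOLA* (ENSBTAG00000002069), *JSP* (ENSBTAG00000020116), *TAP1* (ENSBTAG00000008953), *TAP2* (ENSBTAG00000003038), *TAPBP* (ENSBTAG00000016828), *PSMB8* (ENSBTAG00000003039) and *CD74* (ENSBTAG00000015228). The samples were rumen tissue of 3 adult, lactating Holstein dairy cows, with 1 library per cow and no treatment, so the comparisons are between states of cells inside each cow. The tissue was digested into single cells, transcripts were counted by droplet sequencing of 3' ends with unique molecular identifiers (UMIs), and the study kept epithelial cells only. The files held 3369, 7401 and 9958 cells from cows 1, 2 and 3, with 38912809, 94856658 and 104189434 UMIs.

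MHC class I molecules show fragments of a cell's own proteins at its surface to cytotoxic T cells. The heavy chain binds the light chain, β2-microglobulin, and a peptide that the proteasome cut, that the TAP transporter pumped into the endoplasmic reticulum and that tapasin helped to load. Interferon exchanges the catalytic subunits of the proteasome for a second set, the immunoproteasome. MHC class II molecules present material taken up from outside, mainly in professional antigen-presenting cells, and travel with the invariant chain, *CD74*. The rumen epithelium is a stratified squamous layer that separates a dense microbial community from the blood.

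The cells were split by UMIs of *KRT15*, a keratin of basal cells, *IGFBP6*, a binding protein of insulin-like growth factors, *DLK2*, which the study took as a marker of granule cells, and *GJA1*, the gap junction protein connexin 43, which it took as a marker of the cells it named channel-gap like spinous cells. Among the 18629 cells with 0 UMIs of *GJA1*, the presence of *DLK2*, the presence of *IGFBP6* and a level of *KRT15* above or below the cow's own median gave 8 states. The 1302 cells with at least 2 UMIs of *GJA1* formed the ninth, *GJA1*+, with 471, 432 and 399 cells in cows 1, 2 and 3. The 797 cells with exactly 1 *GJA1* UMI were left out of the tests. No value of the 8 genes was used to set the states, and differences of the 4 gating genes between states were not tested because the gates fix them. A gate on the presence of UMIs also sorts cells by depth: the median was 17172 UMIs per cell in *GJA1*+ cells and 8463 to 11778 in the other 8 states.

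Epithelial keratins were abundant in the 3 libraries: *KRT5* stood at 37.0, 39.6 and 69.4 UMIs per 10000 in cows 1, 2 and 3 and *KRT14* at 19.3, 28.1 and 48.9. These levels describe the libraries and not each cell. Markers of immune cells were sparse: the 24 of 25 listed immune genes that were found had 3059 UMIs together, of which *AIF1* took 46.1%. *CD52* had 452, *FCER1G* 345, *LAPTM5* 225 and *CD3E* 211, while *PTPRC*, the pan-leukocyte phosphatase CD45, had 38, the Langerhans cell gene *CD207* had 5, and *CD163*, *MS4A1*, *CD79B*, *GZMA* and *GZMB* had 0. The fibroblast genes found had 1 to 5 UMIs each, and of the endothelial genes *PECAM1* had 4, *CDH5* had 3 and *VWF* had 563, in 2.60% of cells. Between libraries, 5, 10 and 20 cell barcodes were shared (cows 1 and 2, 1 and 3, 2 and 3).

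The class I light chain and heavy chain genes differed more between cows than between the 8 states without *GJA1*. *B2M*, the light chain, stood at 6.05, 9.91 and 13.3 UMIs per 10000 UMIs in cows 1, 2 and 3. *BOLA*, a class I heavy chain gene, stood at 2.10, 8.03 and 6.92. *JSP*, named *JSP.1* in RefSeq and also a class I heavy chain gene, stood at 1.70, 1.03 and 5.60. Cow 1 was low in all 3 genes except that *JSP* was lower in cow 2, so the highest cow exceeded the lowest 2.20-fold in *B2M*, 3.82-fold in *BOLA* and 5.44-fold in *JSP*. Class I heavy chain genes are near-identical in sequence and vary between animals, so the split of reads between *BOLA* and *JSP* is uncertain.

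Summed, *BOLA* and *JSP* gave 9.06 UMIs per 10000 in cow 2 and 12.5 in cow 3, with cow 1 below both, an order of the cows that was also that of *B2M*. *JSP* made up 44.7%, 11.4% and 44.7% of this sum in the 3 cows. *ENSBTAG00000048782*, which may share reads with both genes (given further on), is left out of the sum and of the *JSP* share. In cells without *GJA1* it had 148376 UMIs, against 141315 of *BOLA* and 68509 of *JSP*. Across the 9 states of cow 1 that share ran from 41.7% to 48.3%. In cow 2 it ran from 9.17% to 12.4%, and in cow 3 from 43.2% to 47.3%, so no state of cow 2 reached the lowest state of the other two. With 1 library per cow, no test of a difference between cows was possible.

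**Figure D1:**
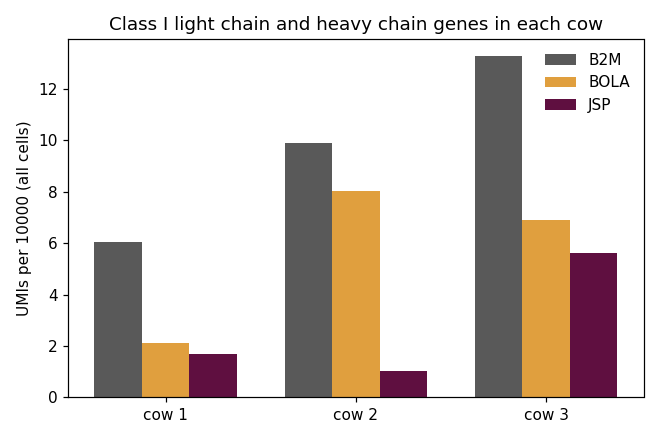
Level of *B2M*, *BOLA* and *JSP* in all cells of each cow, in UMIs per 10000 UMIs, 1 bar per gene and library without replicates. *B2M* rises from cow 1 (6.05) to cow 3 (13.3), *BOLA* is highest in cow 2 (8.03) and *JSP* in cow 3 (5.60).

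*PSMB8*, the β5i subunit of the immunoproteasome, stood at 0.272, 0.467 and 0.714 UMIs per 10000 in cows 1, 2 and 3, in the same order of cows as *B2M*. *TAP1*, a subunit of the peptide transporter, stood at 0.105, 0.125 and 0.229. *TAP2*, its partner, stood at 0.269, 0.206 and 0.316. The highest cow exceeded the lowest 2.63-fold in *PSMB8* and 2.17-fold in *TAP1* but 1.54-fold in *TAP2*. *TAPBP*, tapasin, was the most even of the 8 at 0.481, 0.392 and 0.396, a 1.23-fold range. *CD74* was sparse, with 783 UMIs in all cells and levels of 0.0234, 0.0253 and 0.0434.

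Across the 8 states with 0 *GJA1* UMIs, the state means of *B2M* lay between 9.94 ± 3.03 and 10.5 ± 3.77 UMIs per 10000 (SD, n = 3 cows), a 1.06-fold range. The state means of *BOLA* lay between 5.41 ± 2.67 and 6.47 ± 3.28. The range from the lowest to the highest mean was 1.12-fold for *JSP*, 1.26-fold for *PSMB8*, 1.18-fold for *TAP2*, 1.28-fold for *TAPBP* and 1.69-fold for *TAP1*. It was 3.23-fold for *CD74*, whose levels per state rest on few UMIs. In the order of the 9 state means, *GJA1*+ was last for 7 of the 8 genes and second to last for *TAP1*. It was the lowest state in each of the 3 cows for *B2M*, *BOLA*, *JSP* and *PSMB8*, in 2 cows for *TAPBP*, in 1 for *TAP1* and *CD74*, and in 0 for *TAP2*. Only for *B2M* and *PSMB8* was any pair of neighbours in that order, in each case *GJA1*+ and the state above it, further apart than the SD between cows, and for none of the 8 genes did the *GJA1*+ values of the 3 cows lie wholly outside those of the other states. Tests were therefore made inside cows.

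**Figure D2:**
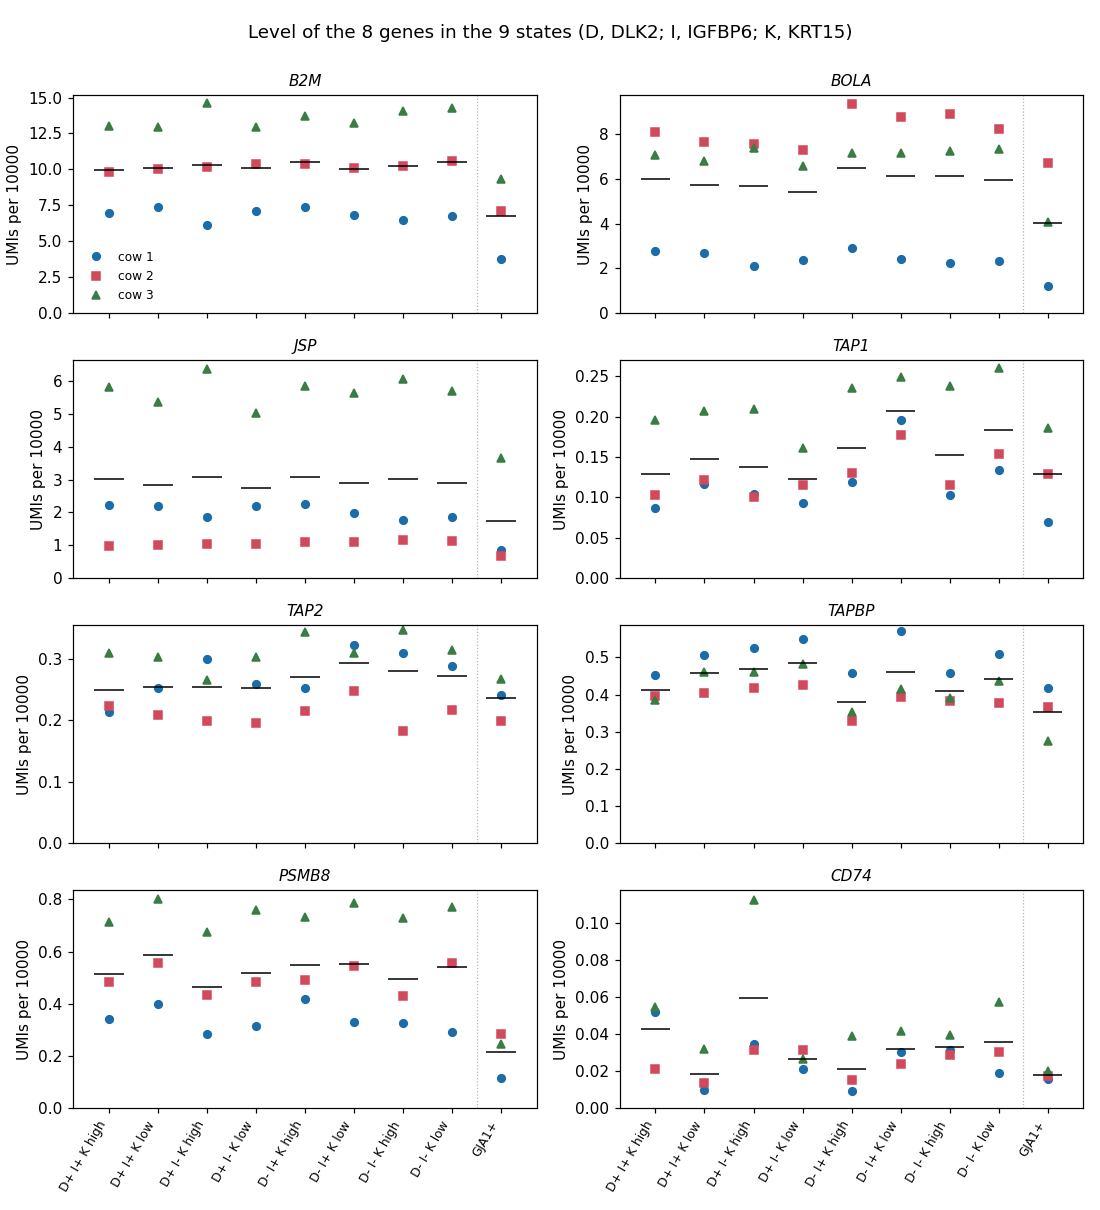
Level of each of the 8 genes (UMIs per 10000 UMIs) in the 9 states, with 1 point per cow and the mean of 3 cows as a bar. D, I and K stand for *DLK2*, *IGFBP6* and *KRT15*. In *B2M*, *BOLA* and *JSP* the cows keep the same order in all 9 states, and in *B2M*, *BOLA*, *JSP* and *PSMB8* the *GJA1*+ points at the right fall below every other state of the same cow.

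The class I genes *B2M*, *BOLA* and *JSP* made up a smaller share of all UMIs in *GJA1*+ cells of every cow. *B2M* stood at 3.78, 7.12 and 9.34 UMIs per 10000 in *GJA1*+ cells of cows 1, 2 and 3, against 6.76, 10.2 and 13.6 in cells with 0 *GJA1* UMIs. *BOLA* stood at 1.21, 6.74 and 4.09 against 2.37, 8.16 and 7.15. *JSP* stood at 0.863, 0.680 and 3.67 against 1.98, 1.07 and 5.75. Inside each cow the *GJA1*+ value was the lower, at 0.560, 0.695 and 0.685 of the other for *B2M*, while values of different cows overlapped. In the edgeR quasi-likelihood test, with the cow as a block, *B2M* fell by 0.52 ± 0.06 on the log2 scale (SE, adjusted p = 7.73e-09), *BOLA* by 0.56 ± 0.08 (adjusted p = 9.67e-07) and *JSP* by 0.70 ± 0.09 (adjusted p = 3.42e-08). These are shares of UMIs, and *GJA1*+ cells held more UMIs each. Per cell, *B2M* averaged 6.60, 14.0 and 14.0 UMIs in *GJA1*+ cells of cows 1, 2 and 3 against 6.99, 12.6 and 13.9 in cells without *GJA1*, so its count per cell was not lower in cows 2 and 3. *BOLA* averaged 2.10, 13.3 and 6.11 UMIs per cell against 2.46, 10.0 and 7.28, and *JSP* 1.51, 1.34 and 5.48 against 2.05, 1.32 and 5.86.

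The largest difference in share was in *PSMB8*. It stood at 0.116, 0.284 and 0.246 UMIs per 10000 in *GJA1*+ cells against 0.322, 0.487 and 0.752 in cells without *GJA1*. That is 64.0%, 41.7% and 67.2% lower in cows 1, 2 and 3, and *PSMB8* fell by 1.13 ± 0.10 on the log2 scale in the same test (adjusted p = 8.78e-12, edgeR). Per cell it averaged 0.202, 0.558 and 0.368 UMIs against 0.332, 0.597 and 0.766, lower in 3 of 3 cows. Of the 8 genes, 6 fell and 0 rose as a share of UMIs at an adjusted p under 0.05, with a median log2 fold change of -0.54, while the median of all 10789 genes tested was -0.03. *GJA1*+ cells differed widely from the rest: 53.6% of all genes tested were called, 27.5% lower and 26.2% higher.

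*TAPBP* and *CD74* were the weaker of the 6 calls. *TAPBP* stood at 0.419, 0.367 and 0.275 UMIs per 10000 in *GJA1*+ cells against 0.504, 0.394 and 0.405, and fell by 0.18 ± 0.07 (edgeR, adjusted p = 0.024). *CD74* fell by 0.65 ± 0.27 (adjusted p = 0.042) on 40 UMIs in *GJA1*+ cells. Per cell, *TAPBP* averaged 0.730, 0.722 and 0.411 UMIs in *GJA1*+ cells of cows 1, 2 and 3 against 0.521, 0.483 and 0.413. Its count per cell was thus higher in cows 1 and 2 and about level in cow 3. *CD74* averaged 0.0276, 0.0347 and 0.0301 UMIs per cell against 0.0270, 0.0325 and 0.0465, lower in cow 3 only. Leaving out cow 1 or cow 3 ended the *TAPBP* call (adjusted p = 0.068 and 0.38), and leaving out any of the 3 cows ended that of *CD74* (adjusted p = 0.069 to 0.32).

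The transporter genes were not called. *TAP1* stood at 0.0694, 0.129 and 0.186 UMIs per 10000 in *GJA1*+ cells against 0.112, 0.123 and 0.232, lower in cows 1 and 3 and slightly higher in cow 2. Its log2 fold change was -0.12 with a 95% interval from -0.33 to 0.10, and that of *TAP2* was -0.06 with an interval from -0.22 to 0.10. Both intervals lie above the estimates for *B2M*, *BOLA*, *JSP* and *PSMB8*. The differences between genes were not tested. Since *TAP1* also differed with *DLK2* (given further on), its result moved with the states it was set against. Compared with the 4 *DLK2*-negative states only, *TAP1* fell by 0.30 on the log2 scale and was called (edgeR, adjusted p = 0.022). That comparison was added after the data were seen, and the matching one with the *DLK2*-positive states was not made.

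**Figure D3:**
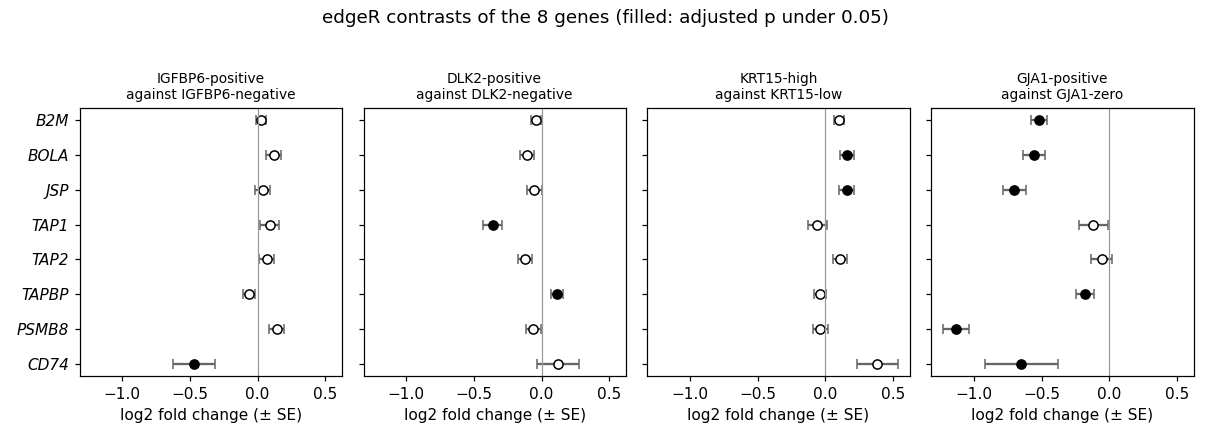
Log2 fold changes of the 8 genes in 4 contrasts of states (edgeR, cow as a block); points are estimates, bars are ± SE and filled points have an adjusted p under 0.05. In the right-hand panel *PSMB8* (-1.13), *JSP* (-0.70), *BOLA* (-0.56) and *B2M* (-0.52) stand well to the left of 0, while *TAP1* and *TAP2* do not; in the other 3 panels most points lie close to 0.

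*GJA1*+ cells differed from the rest in measures other than these genes. Their median mitochondrial share was 24.3%, 14.7% and 15.5% in cows 1, 2 and 3, against 15.7%, 10.6% and 12.3%, and their immune marker level was 0.119, 0.127 and 0.303 UMIs per 10000 against 0.101, 0.0966 and 0.155. The falls of *B2M*, *BOLA*, *JSP* and *PSMB8* were as large or larger in cells of 5000 to 15000 UMIs (*B2M* -0.68, *PSMB8* -1.34) and without cells that held an immune marker UMI (-0.58 and -1.16), and these 4 genes stayed past the threshold among cells of 5 to 20% mitochondrial UMIs (-0.42 and -0.97). Fewer *GJA1*+ cells remained: 120, 77 and 201 in cows 1, 2 and 3 in the depth window and 391, 339 and 279 without immune marker UMIs. In the mitochondrial window they were 88, 366 and 303. *TAPBP* lost its call in each of these 3 settings (adjusted p = 0.13, 0.068 and 0.073), and *CD74* in the first 2 (0.075 and 0.12). Without the block for cow, *PSMB8* alone kept its call (adjusted p = 0.028), and the adjusted p was 0.32 for *B2M*, 0.65 for *BOLA*, 0.58 for *JSP*, 0.25 for *TAPBP* and 0.19 for *CD74*.

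Cells with more *GJA1* UMIs had lower levels of several of the genes. In cells with 0, 1, 2 to 3 and at least 4 UMIs of *GJA1*, *B2M* stood at 6.76, 5.83, 4.59 and 3.55 UMIs per 10000 in cow 1. It stood at 10.2, 8.83, 7.94 and 6.80 in cow 2 and at 13.6, 11.2, 9.90 and 8.98 in cow 3. *JSP* and *PSMB8* also went down at each step in 3 of 3 cows, and *BOLA* in cows 1 and 3. *PSMB8* reached 0.0938, 0.254 and 0.217 UMIs per 10000 at 4 or more UMIs, which was 70.8%, 47.7% and 71.2% below its level at 0. In cow 2, *BOLA* was level at 8.16, 8.12 and 8.14 over the first 3 steps and 6.18 at the last. *TAPBP* went down at each step in 1 of 3 cows, and *TAP1*, *TAP2* and *CD74* in 0 of 3. The cells on either side of the gate, with 1 and with 2 to 3 *GJA1* UMIs, had mean *B2M* levels of 8.61 and 7.48.

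**Figure D4:**
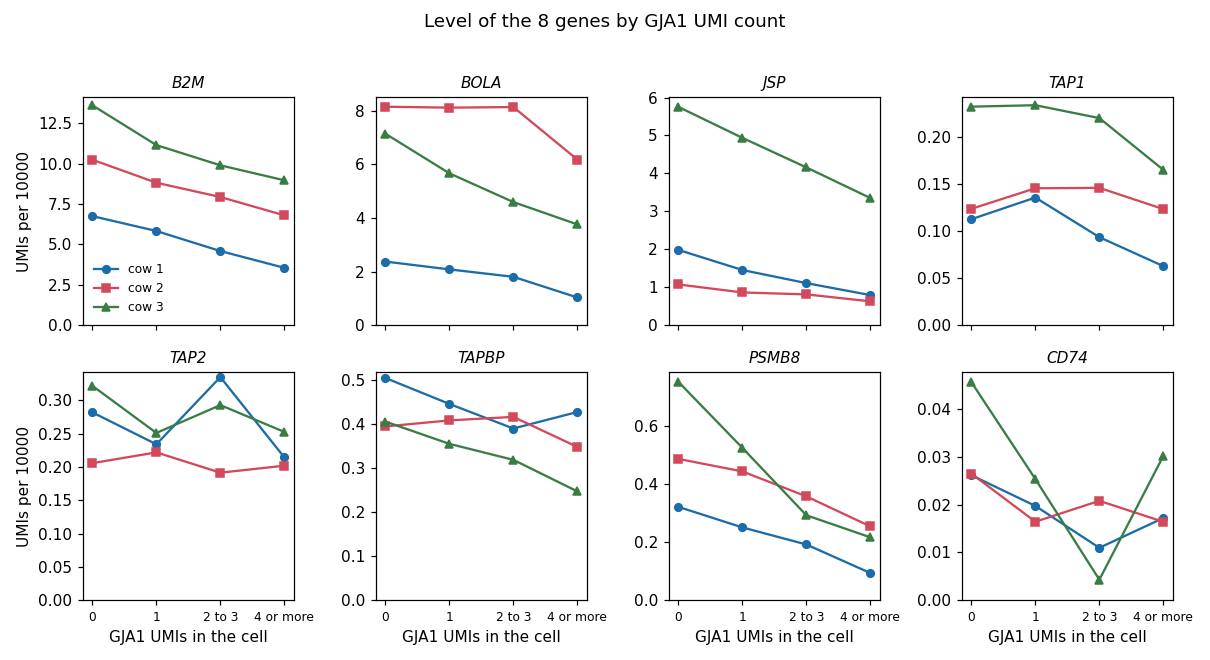
Level of each of the 8 genes (UMIs per 10000 UMIs) in cells with 0, 1, 2 to 3 and 4 or more UMIs of *GJA1*, with 1 line per cow and no error bars, since each point is 1 library. *B2M*, *JSP* and *PSMB8* go down at each step in all 3 cows; *TAP1*, *TAP2* and *CD74* do so in none.

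The lower level of *B2M*, *BOLA*, *JSP* and *PSMB8* in *GJA1*+ cells was found on both sides of each of the other gates. Among cells with *DLK2* UMIs, *B2M* stood at 3.37, 6.50 and 7.80 UMIs per 10000 in *GJA1*+ cells of the 3 cows against 6.78, 10.2 and 13.2 without *GJA1*. Among cells without *DLK2* UMIs it stood at 3.87, 7.30 and 9.49 against 6.73, 10.3 and 13.8. *B2M*, *BOLA*, *JSP* and *PSMB8* were each lower in 3 of 3 cows in all 6 such splits, by presence of *DLK2*, presence of *IGFBP6* and *KRT15*-high or *KRT15*-low. The difference could be slight, as for *BOLA* in *KRT15*-low cells of cow 2, at 7.52 against 7.84. *TAP1*, *TAP2*, *TAPBP* and *CD74* were not lower in every cow in every split: with *IGFBP6*, *TAP2* and *CD74* were lower in 1 of 3 cows. The splits divide the same cells by each gate in turn. Some splits are small, such as 37 *GJA1*+ cells with *DLK2* in cow 3, and these values were not tested.

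As a share of UMIs, the 3 immunoproteasome subunits were lower in *GJA1*+ cells, while the subunits they replace were called higher. *GJA1*+ cells held more UMIs each, and counts per cell of *PSMB9* and *PSMB10* were not compared, so a lower share need not be a lower count per cell. *PSMB9* (β1i) stood at 0.0475, 0.0577 and 0.0905 UMIs per 10000 in *GJA1*+ cells against 0.0755, 0.118 and 0.245, and fell by 0.98 ± 0.14 on the log2 scale (edgeR, adjusted p = 2.96e-07). *PSMB10* (β2i) stood at 0.0730, 0.0494 and 0.0704 against 0.120, 0.142 and 0.129, and fell by 0.89 ± 0.13 (adjusted p = 1.04e-06). Their standard counterparts rose: *PSMB5* (β5) by 0.38 ± 0.05, *PSMB6* (β1) by 0.35 ± 0.06 and *PSMB7* (β2) by 0.16 ± 0.06. *PSMB7* was the least secure of these: its adjusted p was 0.024, the call was lost in 8 of 14 alternatives, and in cow 1 its level over all cells was 0.713 UMIs per 10000 with *GJA1* against 0.748 without. The *PSMB9* call was lost without the block for cow (adjusted p = 0.11), as were those of *PSMB5* (0.17) and *PSMB6* (0.46), while *PSMB10* kept it (0.00079).

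As a share of its pair, *PSMB8* made up 25.2%, 30.5% and 32.3% of the UMIs of *PSMB8* and *PSMB5* in cells without *GJA1* and 9.24%, 16.5% and 12.1% in *GJA1*+ cells. *PSMB9* went from 9.84%, 8.89% and 15.4% of its pair with *PSMB6* to 6.15%, 3.87% and 5.05%. *PSMB10* went from 13.8%, 12.9% and 9.32% of its pair with *PSMB7* to 9.29%, 4.51% and 5.02%. All 9 comparisons inside a cow pointed the same way. This pairing was chosen after the values were seen, so the shares are descriptions without a test. An exact sign-flip permutation test over 3 cows cannot give a two-sided p below 0.25.

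**Figure D5:**
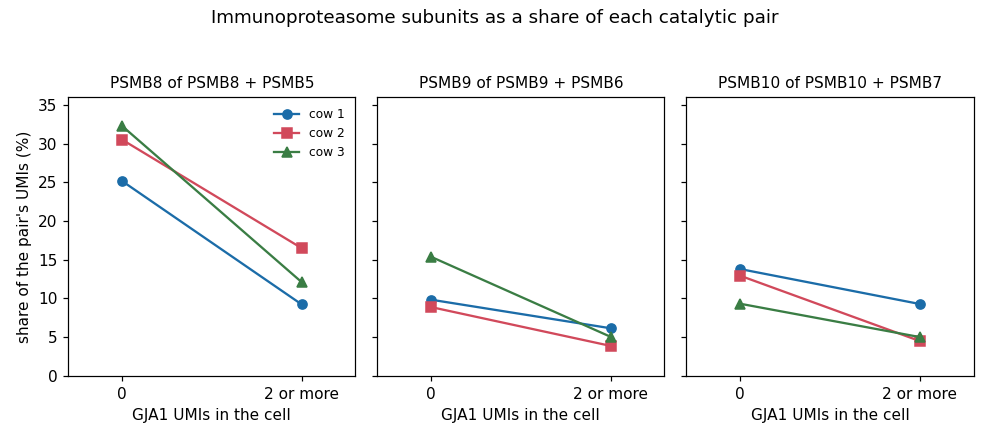
Immunoproteasome subunit as a percentage of the UMIs of its catalytic pair, in cells with 0 and with at least 2 UMIs of *GJA1*, with 1 line per cow. Every line goes down, from a mean of 29.3% to 12.6% for *PSMB8*, from 11.4% to 5.02% for *PSMB9* and from 12.0% to 6.27% for *PSMB10*.

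Most core proteasome genes were called higher in *GJA1*+ cells, though not in every alternative. Of the 14 core subunits listed, 11 rose and 0 fell, where 26.2% of all genes tested were called higher and 27.5% lower, led by *PSMB5*, *PSMA5* (0.42 ± 0.06), *PSMB4* (0.27 ± 0.05), *PSMA2* (0.45 ± 0.08), *PSMB6* and *PSMA4* (0.34 ± 0.07). The median of the 14 was 0.25 on the log2 scale. *PSMA1*, *PSMB1* and *PSMB3* were not called, at 0.12, 0.04 and -0.08.

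Of the 12 genes tested from the list of class I loading and peptide supply, 6 fell and 2 rose in *GJA1*+ cells, with a median of -0.19, where 27.5% of all genes tested were called lower and 26.2% higher. Those that fell were *PSMB9*, *PSMB10*, the PA28 proteasome activator subunits *PSME1* (-0.27 ± 0.06) and *PSME2* (-0.21 ± 0.07), the peptide-trimming enzyme *ERAP2* (-1.46 ± 0.34) and the oxidoreductase *PDIA3* (-0.21 ± 0.06), a part of the peptide-loading complex. Those that rose were the chaperone calnexin, *CANX* (0.38 ± 0.05), and *PSME3* (0.47 ± 0.09), an activator subunit of the nuclear proteasome. *NLRC5*, the transactivator of class I genes, had 8 UMIs in all cells and was not tested. In the RefSeq gene order (assembly ARS-UCD2.0) *TAP1* lies between *PSMB8* and *PSMB9*.

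Outside *GJA1*+ cells the class I genes among the 8 showed small differences, and *TAP1* had the largest. With *DLK2*, it stood at 0.0978, 0.109 and 0.195 UMIs per 10000 in the 3 cows, against 0.125, 0.138 and 0.244 without *DLK2* (cells with 0 *GJA1* UMIs). It was lower with *DLK2* in 3 of 3 cows, by 0.36 ± 0.07 on the log2 scale (edgeR, adjusted p = 9.34e-05), and the call was lost only without the block for cow (adjusted p = 0.35). In the same contrast *TAP2* was at -0.12 and not called (adjusted p = 0.076), and *TAPBP* rose by 0.12 ± 0.04 (adjusted p = 0.044). The *TAPBP* call was kept in 1 of 13 alternatives and ended when any 1 cow was left out (adjusted p = 0.080 to 0.27). Among all genes tested 30.2% were called, 14.7% higher with *DLK2* and 15.6% lower, so 1 of 8 in each direction is near the background. *B2M*, with an interval from -0.12 to 0.04, and *PSMB8*, from -0.17 to 0.05, were not called.

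In *KRT15*-high cells 2 heavy chain genes were called slightly higher. *BOLA* rose by 0.16 ± 0.05 (edgeR, adjusted p = 0.025) and *JSP* by 0.16 ± 0.06 (adjusted p = 0.034), each in 3 of 3 cows as the mean over the *DLK2* and *IGFBP6* gates, and *B2M* stood at 0.10 ± 0.04 (adjusted p = 0.056). In plain levels over all cells without *GJA1*, cow 1 did not share the direction: *JSP* stood at 1.93 UMIs per 10000 in *KRT15*-high cells against 2.04 in *KRT15*-low cells, and *BOLA* at 2.37 against 2.38. Plain *B2M* was lower in *KRT15*-high cells of cows 1 and 2, at 6.57 and 10.2 against 6.95 and 10.3. In cow 3 it was higher, at 13.8 against 13.5. The test scales the sums by TMM and averages over the gates, and plain levels do neither. The calls of *BOLA* and *JSP* did not stand without cow 2 (adjusted p = 0.12 and 0.11), without cow 3 (0.055 and 0.24) or without the block (0.97 and 0.98). Called higher were 2 of the 8 genes, against 13.4% of all genes tested called higher and 25.9% called in either direction. *CD74* stood at 0.38 ± 0.15 (adjusted p = 0.057). With the cells ranked by *KRT15* level into 4 groups, *JSP* in the highest group was at 0.991, 1.02 and 1.10 times the lowest in cows 1, 2 and 3.

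With *IGFBP6*, 1 of the 8 genes was called: *CD74*, which fell by 0.47 ± 0.16 (edgeR, adjusted p = 0.038). The difference was -0.02 both in cells of 5000 to 15000 UMIs and in cells thinned to 5000 UMIs, and the call was also lost without any 1 of the 3 cows. Among all genes 15.6% were called in this contrast, 7.34% lower and 8.30% higher. The other 7 genes lay between -0.06 and 0.14. The *IGFBP6* difference did not differ detectably between *DLK2*-positive and *DLK2*-negative cells: 0 of 10789 genes were called by edgeR and 0 by DESeq2, a background of 0.00%, with 337 and 189 genes at an unadjusted p under 0.05. The 8 genes lay between -0.17 and 0.10 in that comparison.

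The proteasome and class I loading lists were also counted in the other contrasts. With *IGFBP6*, 7 of 14 standard proteasome subunits rose, where 8.30% of all genes tested were called higher, by 0.10 to 0.20 each. Of the 12 loading genes 2 fell and 1 rose, where 15.6% of all genes were called: *PSMB10* fell by 0.36 ± 0.08 and *HSPA5*, the chaperone BiP, by 0.22 ± 0.07, while *CANX* rose by 0.16 ± 0.04. With *DLK2*, 5 of the 14 subunits fell, where 15.6% of all genes were called lower, led by *PSMA5* (-0.26 ± 0.05). Of the 12 loading genes 1 fell and 3 rose, a share near the 30.2% of all genes called: *CANX* fell by 0.30 ± 0.04 and *PSMB10* (0.20 ± 0.07), *PSME1* (0.13 ± 0.04) and the peptide-trimming enzyme *ERAP1* (0.43 ± 0.13) rose. In *KRT15*-high cells 2 of the 12 loading genes fell and 0 rose, where 25.9% of all genes were called: *PSMB9* fell by 0.24 ± 0.07 and *HSPA5* by 0.32 ± 0.07. Of the 14, 2 proteasome subunits, *PSMB4* (0.16 ± 0.03) and *PSMB6* (0.12 ± 0.04), rose, a share near the 13.4% of all genes called higher.

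Message of *CD74* and of the class II chains that were found was sparse. Of the 19 genes in the class II list 15 were found by name. *BOLA-DRB2*, *BOLA-DRB3*, *BOLA-DQA1* and *BOLA-DQA2* were not, so their levels are not known here. Of the 783 *CD74* UMIs, 573 stood alone in their cell, and the highest count in a cell was 18. *BOLA-DRA*, a class II α chain, had 325 UMIs, *CIITA*, the class II transactivator, had 35, and 28 cells held both *CD74* and *BOLA-DRA*. *CD74* was not confined to cells with immune marker UMIs: it stood at 0.0271, 0.0317 and 0.0449 UMIs per 10000 in such cells of cows 1, 2 and 3 and at 0.0228, 0.0243 and 0.0431 in the others, at median depths of 14073, 14113 and 11691 against 9979, 11762 and 9463 UMIs per cell. What part free RNA from other cells has in these counts was not tested.

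Of the class II list, 9 of 19 genes were tested, and in *GJA1*+ cells 4 fell and 1 rose, a share near the 53.6% of all genes called in this contrast. *BOLA-DMA* fell by 0.58 ± 0.23 and *BOLA-DMB* by 1.13 ± 0.44 (edgeR, adjusted p = 0.033 and 0.029), both chains of the class II peptide exchanger. *RFXANK* (-0.65 ± 0.08) and *RFXAP* (-0.84 ± 0.35), subunits of the factor that binds promoters of both MHC classes, fell, while *RFX5*, another subunit, rose by 0.51 ± 0.17 and was at -0.32 in cells thinned to 5000 UMIs. *BOLA-DRA* was at -0.39 ± 0.39 and not called. Of the alternatives, *BOLA-DMA* kept its call in 6 of 14, *BOLA-DMB* in 8 of 13, *RFX5* in 8 of 14 and *RFXAP* in 5 of 12, where *RFXAP* ranged from -1.17 to -0.15, while *RFXANK* kept it in 14 of 14. *RFXANK* was the only one of this list called with *DLK2*, where it rose by 0.30 ± 0.05, and none was called with *IGFBP6* or *KRT15*.

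Of 18 interferon signalling genes and targets tested in *GJA1*+ cells, 6 fell and 3 rose, no larger a share than the 53.6% of all genes called in this contrast. *IRF1*, a transcription factor of class I and immunoproteasome genes, stood at 0.0110, 0.122 and 0.0251 UMIs per 10000 in *GJA1*+ cells against 0.209, 0.741 and 0.0776, and fell by 2.48 ± 0.20 on the log2 scale (edgeR, adjusted p = 2.08e-12). The *IRF1* call was kept in 13 of 14 alternatives. *SOCS3*, a feedback inhibitor of cytokine receptors, fell by 3.39 ± 0.33 and *IRF2*, a repressor of interferon responses, by 0.64 ± 0.08. *GBP4*, *ISG15* and *IFI6*, all interferon-induced, were the 3 called higher. *GBP4* had 61 UMIs in *GJA1*+ cells and 35 in all cells without *GJA1*, so it passed the filter on low counts only through the group in which it was high and its call is no support. *IFI6* had 138 UMIs in all cells, found in 0.24% of them, and was higher in 2 of 3 cows. *ISG15* rose by 2.52 ± 0.45. It stood at 0.0243, 0.0353 and 0.179 in *GJA1*+ cells against 0.0133, 0.0237 and 0.00965, so cow 3 took most of its difference. Without cow 3 it was at 0.77 and without cells holding an immune marker UMI at 0.62, in neither case called.

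*IRF1* was also called lower in 2 other contrasts. It fell by 0.78 ± 0.09 with *IGFBP6* (adjusted p = 3.11e-07) and by 0.47 ± 0.09 in *KRT15*-high cells (adjusted p = 0.00017). *SOCS3* fell by 0.75 ± 0.12 and *IRF2* by 0.23 ± 0.05 with *IGFBP6*, where 4 of the 18 genes fell and 0 rose against 7.34% of all genes called lower. In *KRT15*-high cells *MX1* also fell, by 1.03 ± 0.36, and 3 of the 18 fell and 0 rose against 12.4% of all genes called lower. With *DLK2*, 3 of the 18 rose and 1 fell, below the 30.2% of all genes called. *JAK1* (0.16 ± 0.04), *IRF2* (0.19 ± 0.05) and *SOCS3* (0.40 ± 0.12) rose, and the one called lower was *GBP4*, on the 35 UMIs given above. *JAK2* (-0.47 ± 0.11) and the interferon-γ receptor chain *IFNGR1* (-0.44 ± 0.09) also fell in *GJA1*+ cells.

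Patterns were compared over the 27 sums of a state in a cow among 6930 genes, after the mean of each cow was taken out. The 5 genes most like *B2M* were *JSP* (Pearson's r = 0.98), *ENSBTAG00000048782* (0.96), *BOLA* (0.92), *BOLA-NC1*, a non-classical class I gene (0.88), and *PSMB8* (0.88). *JSP*, *BOLA*, *BOLA-NC1* and *ENSBTAG00000048782* may share reads, so the split of counts among them is uncertain and their likeness to each other is not independent. *ENSBTAG00000048782*, which carries no gene symbol in the tables, stood at 4.52, 6.90 and 8.38 UMIs per 10000 without *GJA1* and at 2.28, 4.41 and 5.79 in *GJA1*+ cells. *JSP* had the same genes, with *B2M* in place of itself (r = 0.98). Without the *GJA1*+ sums the values for *B2M* were 0.90 with *JSP*, 0.87 with *BOLA*, 0.77 with *ENSBTAG00000048782*, 0.57 with *BOLA-NC1* and 0.52 with *PSMB8*, over 24 sums. For *PSMB8* the 5 were *B2M*, *BOLA*, *BOD1L1*, *CAVIN3* and *ENSBTAG00000023026*, at 0.85 to 0.88, and *BOD1L1* and *ENSBTAG00000023026* dropped to 0.07 and 0.13 without the *GJA1*+ sums. *TAP1* and *TAP2* resembled each other at r = 0.51, and *TAP2* was at 0.05 with *B2M*. These sums share libraries and depth, so the values are descriptions.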

How the data were processed

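Single-cell RNA of rumen tissue from 3 cows was counted by the authors with Cell Ranger 3.1.0 on the assembly ARS-UCD1.2, and they filtered cells, looked for doublets and kept epithelial cells. The authors deposited UMI counts, whole numbers per gene and cell. The authors also deposited the natural log of 1 plus the counts scaled to 10000 UMIs, which named the rows and matched the counts within 1e-06. Barcode suffixes gave the cow. Cells held 501 to 3998 genes and at most 39655 UMIs. No doublet caller was run here.

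UMI counts were summed per cow and state (27 sums) and tested with edgeR 4.0.16 (R 4.3.3; TMM, filterByExpr, glmQLFit and glmQLFTest, cow as a block, Benjamini-Hochberg over 10789 genes without the 4 gating genes), with calls at an adjusted p under 0.05. SE is the log2 fold change divided by the root of F. The cow pairs the sums: after the mean of each state was taken out, the deviations of 1 cow correlated at 0.54 to 0.67 on average. Deviations of different cows were at -0.33, a sign that is in part built in, since deviations from a mean of 3 cows cancel out. Levels are UMIs per 10000 UMIs of all genes. Cows are separate animals, and any statement about animals rests on 3 of them. The SE and p of the edgeR test come from the scatter of the 27 sums. They do not measure how a difference varies between cows. On data simulated for the *IGFBP6* contrast (10337 genes), 67 of 86 genes changed by 0.5 and 97 of 101 changed by 1 (log2) were recovered, with 9 false calls. The simulated counts were drawn independently at a fixed spread, with no cow effect and no other state effect. They do not show how the test does on sums that share a cow.

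The 8 genes and the pathway lists were chosen with earlier results of these data known. Genes named were these 8, the called genes of each list up to the 6 with the smallest p, and the 5 genes whose log2 CPM correlated most with *B2M*, *JSP* and *PSMB8* (mean count of 50 or more). *PSMB7*, *PSMA1*, *PSMB1*, *PSMB3*, *PSME2*, *PDIA3*, *IFNGR1*, *JAK2*, *IFI6*, *BOLA-DRA*, *CIITA* and *NLRC5* were named after their values were seen. Alternatives were DESeq2 1.42.0, no filter, no block, leaving out a cow, a fold threshold, depth windows, thinning, other gates and removal of cells with few mitochondrial or any immune UMIs; 2 were added after the data were seen (cells of 5 to 20% mitochondrial UMIs; *GJA1*+ against *DLK2*-negative states). Genome coordinates and sequences are not used here, RefSeq (ARS-UCD2.0) gave only which genes neighbour each other, and 1 listed gene is not reported here.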

Additional observations from a re-analysis of the deposited data

How the results depend on the processing

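Of the log2 fold changes of 37 named results under the alternatives, 392 of 504 kept direction and side of the threshold, 108 lost the call, 1 gained it (*TAP1* in *GJA1*+ cells against the *DLK2*-negative states) and 3 changed sign. The sign changes were *TAP1* in *GJA1*+ cells without cow 1 (0.031, with -0.22 the other end of the range when 1 cow was left out) and with other gate minimums (0.10), neither called, and *RFX5* with cells thinned to 5000 UMIs (-0.32). *B2M*, *BOLA* and *JSP* kept their calls in *GJA1*+ cells in 13 of 14 alternatives, at -0.68 to -0.37, -0.73 to -0.37 and -0.94 to -0.48, and *PSMB8* in 14 of 14, at -1.38 to -0.78. *TAPBP* kept its call in 3 of 14 and *CD74* in 5 of 14.

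Counts of all genes called moved most without the replicate block for cow, to 34 with *IGFBP6* (from 1687), 397 with *DLK2* (from 3261), 331 with *KRT15* (from 2792) and 2552 with *GJA1* (from 5787). In that fit without the block 0, 0, 0 and 1 of the 8 genes were called. With a log2 fold change above 0.36 as well the gene counts were 573 with *IGFBP6*, 1196 with *DLK2* and 1074 with *KRT15*. In cells of 5000 to 15000 UMIs they were 612 with *IGFBP6*, 1561 with *DLK2* and 3623 with *GJA1*, and in cells thinned to 5000 UMIs 359, 1620, 1351 with *KRT15* and 3058; both alternatives use fewer UMIs. Other gate minimums gave 1610 with *KRT15*. Leaving out 1 cow gave 810 (cow 2) to 1315 genes with *IGFBP6*, 2037 to 2705 with *DLK2*, 1835 to 2373 with *KRT15* and 4635 to 4953 with *GJA1*. The difference of the *IGFBP6* contrast between *DLK2* gates gave 10 genes without the filter on low counts and 3 with thinning, from 0.

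Of the 8 genes, 1 was called with *IGFBP6*, 2 with *DLK2*, 2 with *KRT15* and 6 with *GJA1*. With *IGFBP6* the count was 0 by DESeq2, in the depth window, after thinning and with other gate minimums, and 3 without the filter. With *DLK2* it was 1 by DESeq2, above the fold threshold, in the depth window and without cells with immune marker UMIs. With *KRT15* it was 0 by DESeq2 and above the fold threshold, 1 in the depth window and after thinning, and 4 without the filter. Leaving out 1 cow gave 0 to 1 of them with *IGFBP6*, 1 to 2 with *DLK2* and 0 to 3 with *KRT15*. The causes of these changes were not tested.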
